A study of Mesocricetus auratus with 6 samples.

Results

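The genes described are the core of transforming growth factor beta (TGF-beta) signal transduction: the receptors Tgfbr1 and Tgfbr2, the signal transducers Smad2, Smad3 and Smad4, the inhibitory Smad7, the corepressors Ski and Skil, and the ubiquitin ligases Smurf1 and Smurf2. They were taken by symbol, and all 10 were found by NCBI Gene ID among the 16078 IDs of the files. Each had a mean of at least 1 FPKM in a group, so all 10 of the 10 passed the filter on low values that left 11464 genes tested. FPKM is a fragment count divided by transcript length and by the mapped fragments of the library, so levels of different genes can be set side by side per length.

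The cells were BHK21, a fibroblast-like hamster kidney line labelled with an age of 1 day, with RNA taken at 48 after transfection (the labels give no unit of time). All libraries came from transfected cells: 3 were given STYK1/NOK, the gene of a kinase-like membrane protein, and 3 received the empty plasmid pCMV-Myc (the vector libraries). The labels do not say whether the transfections were separate cultures, what share of the cells took up the plasmid, or from which species the STYK1/NOK sequence came, and the p-values therefore reflect library-to-library spread alone, possibly technical. Hamster Styk1 (Gene ID 101839917) measured 1.5, 1.8 and 1.89 FPKM across vector 1 to 3 and 2.04, 2.46 and 2.41 FPKM across STYK1 1 to 3, and it was not called (adjusted p = 0.470 by limma-trend, Benjamini-Hochberg).

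In this pathway a TGF-beta dimer brings the type II receptor TGFBR2 together with the type I receptor TGFBR1, which the type II kinase then activates. TGFBR1 phosphorylates SMAD2 and SMAD3, which join SMAD4 and enter the nucleus to regulate genes, among them those for the inhibitors SMAD7 and SKIL. SKI and SKIL hold SMAD complexes in a repressed state, and SMURF1 and SMURF2, ligases of the HECT family, mark receptors and SMADs for degradation, partly with SMAD7 as an adaptor. In fibroblasts the pathway is known for inducing matrix genes and the contractile state.

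Vector 1 stood apart from the other libraries, which bears on most of the differences given here. Its Pearson correlation with them was 0.963 to 0.976 on log2(FPKM + 1) over the tested genes, against 0.988 to 0.993 among the other 5. FPKM sums per library ranged from 528160 to 619840, the highest in vector 1, and every vector library had a higher sum than every STYK1 library. Scaling to equal FPKM sums therefore moves STYK1 libraries up relative to vector libraries. The median log2 fold change (STYK1 minus vector) of all tested genes was 0.01 as deposited and 0.12 with equal sums. With equal sums and without vector 1 it was 0.07. Total reads were not used here. Relative depth, taken as the inverse of the most frequent FPKM ratio to STYK1 1 among genes of low FPKM, ranged from 0.979 to 1.03. FPKM is already divided by mapped fragments, so values near 1 do not establish that the libraries had equal depth. Of the marker lists, the summed level of 8 fibroblast genes was 4199 to 4490 FPKM over the vector and 3970 to 4314 FPKM over the STYK1 libraries. Nearly all of it was the intermediate filament gene Vim. Pdgfra lay at 184 to 330 FPKM, Pdgfrb at 35.2 to 39.2 FPKM and Dcn at 3.51 to 6.79 FPKM. The collagen genes Col1a1 and Col1a2 lay at 0.4 to 1.02 FPKM in every library, and Lum and Thy1 did not exceed 0.8 FPKM. The sum of 5 epithelial genes was 0.19 to 0.4 FPKM over the vector and 0.09 to 0.38 FPKM over the STYK1 libraries, with every gene under 1 FPKM. The sum of 4 endothelial genes was 4.89 to 8.58 against 6.73 to 9.46 FPKM. Nearly all of it was Cdh5, at 4.45 to 9.11 FPKM, with Pecam1 at 0.35 to 0.54 FPKM and Tek and Emcn at 0 in most libraries. The sum of 6 myeloid genes was 521 to 534 FPKM over the vector and 452 to 513 FPKM over the STYK1 libraries, nearly all from Cd68 and Cd14, while the leukocyte gene Ptprc did not exceed 0.16 FPKM and Itgam and Adgre1 did not exceed 0.09 FPKM. The part of these markers in the results was not tested.

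The levels of the 10 genes fell into steps. Averaged over the 6 libraries, Smurf2 (40.1 FPKM) and Tgfbr2 (39.4 FPKM) were the most abundant, followed by Smad3 (30.7 FPKM). Ski (21.0 FPKM) and Smad4 (20.7 FPKM) formed the next step. Skil (11.7 FPKM), Smurf1 (11.4 FPKM), Tgfbr1 (10.2 FPKM) and Smad2 (8.91 FPKM) came after them, and Smad7 (2.27 FPKM) was the lowest. The ranges of neighbours overlapped within each of these steps and between Tgfbr2 and Smad3. They did not overlap between Smad3 and Ski, between Smad4 and Skil, or between Smad2 and Smad7. The median tested gene had a mean of 15.8 FPKM. Smurf2 had a higher mean than 77.0% of tested genes and Smad7 a higher mean than 8.48% of them.

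**Figure D1:**
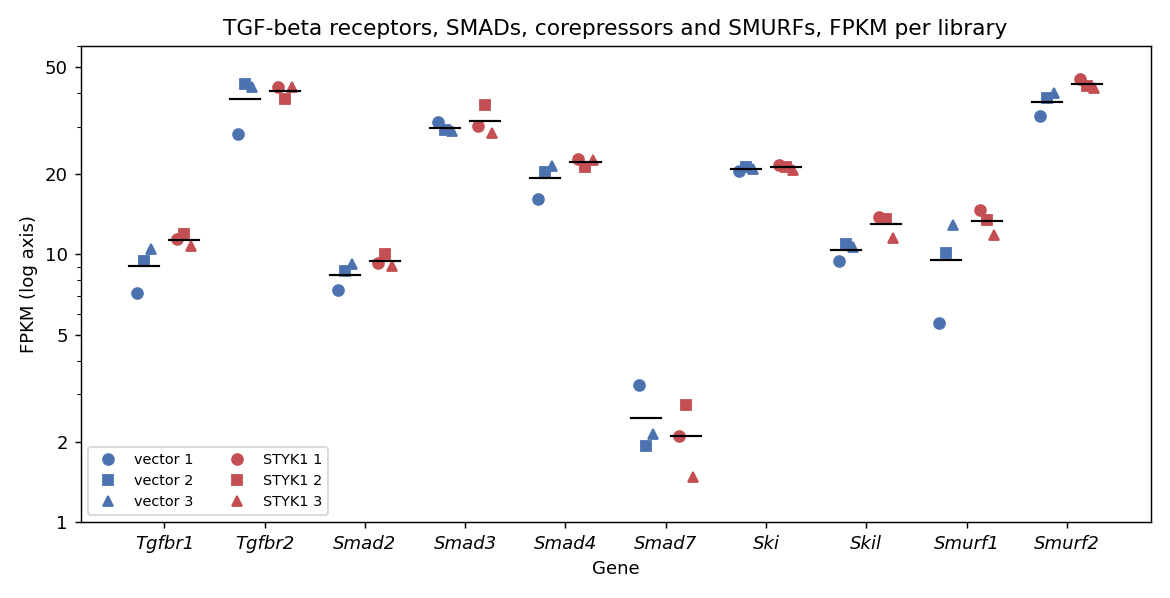
FPKM (log axis) of the 10 genes in each library, with vector libraries in blue, STYK1 libraries in red, symbols marking the replicate number and black bars the group means (n = 3 each). Vector 1 is the lowest point for 8 of the 10 genes and the highest for Smad7, and the groups are fully separated for Tgfbr1, Skil and Smurf2.

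None of the 10 genes passed the test between STYK1 and vector libraries. The limma-trend fit on log2(FPKM + 1) called 0 of 11464 genes (0%) at a Benjamini-Hochberg adjusted p under 0.05, and 1128 genes (9.84%) had an unadjusted p under 0.05. The smallest p among the 10 belonged to Skil, followed by Smurf2, Tgfbr1 and Smurf1. In Tgfbr1, Skil and Smurf2 all 3 STYK1 libraries lay above all 3 vector libraries, against 13.6% of all tested genes, and in 0 of the 10 did they all lie below, against 9.44%. The log2 fold change (STYK1 minus vector) was above 0 for 9 of the 10 genes, against 52.7% of all tested genes, and its median was 0.18, against 0.01 over all tested genes. Without vector 1 the median was 0.10, with the background at 0.02. There 9 of 10 lay above 0, against 55.6%, but Smad7 was now above 0 and Tgfbr2 below. The same 3 genes had separated groups without vector 1, against 17.9% of tested genes. When each library was left out in turn, 8 to 10 genes lay above 0, against 50.7% to 55.6% of tested genes, and the median was 0.099 to 0.25. With median centring 8 lay above 0, against 47.0%, and with array quality weights 8, against 53.5%. The number with separated groups was 6 without vector 3, where 19.4% of all tested genes were separated that way, and 6 without STYK1 3, against 20.1%. With the libraries scaled to equal FPKM sums it was 6, against 24.5% of all tested genes, and 28.5% when vector 1 was also left out. Tgfbr1, Skil and Smurf2 were among the separated genes each time. These are bulk libraries, in which fewer cells of a type and less RNA per cell cannot be told apart.

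**Figure D2:**
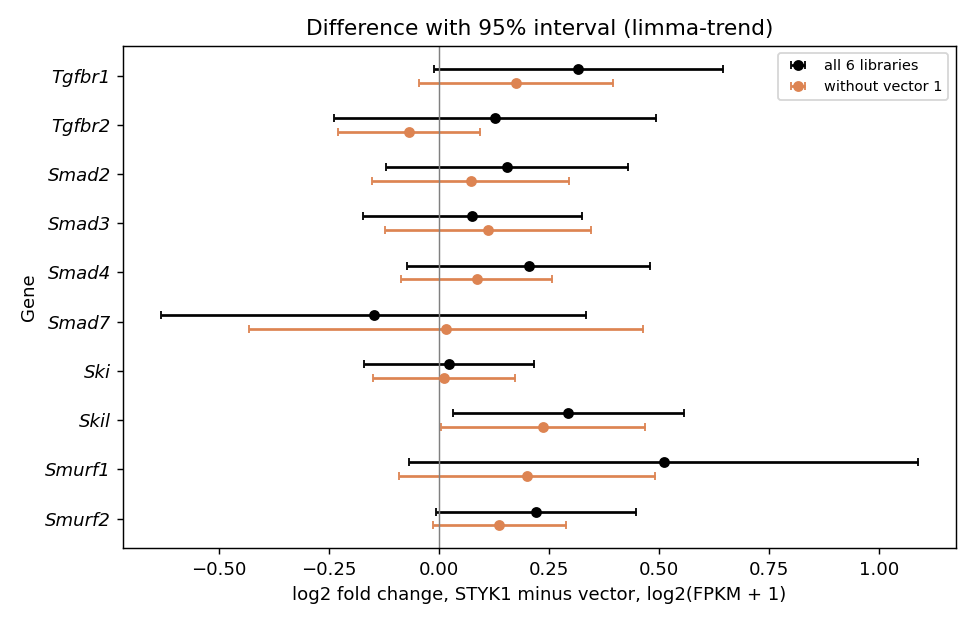
Log2 fold change of each gene (STYK1 minus vector on the log2(FPKM + 1) scale, points) with its 95% interval from limma-trend (bars), for all 6 libraries in black and without vector 1 in orange. The interval of Skil lies above 0 in both fits, at 0.03 to 0.56 and at 0.0043 to 0.47 (adjusted p = 0.469 and 0.525), but it reached below 0 without vector 3, STYK1 1 or STYK1 2, with quantile normalization and with the replicate block.

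Of the receptors, Tgfbr1 (Gene ID 101839669), the type I receptor kinase that phosphorylates SMAD2 and SMAD3, measured 7.16, 9.44 and 10.46 FPKM across vector 1 to 3 and 11.42, 11.89 and 10.77 FPKM across STYK1 1 to 3. The groups did not overlap, but the lowest STYK1 library lay just above vector 3, and vector 1 was well below all the others. The means were 9.02 ± 1.69 FPKM for vector and 11.4 ± 0.562 FPKM for STYK1 libraries (SD, n = 3 each), a ratio of 1.26. The log2 fold change was 0.32 ± 0.14 (SE; 95% interval -0.01 to 0.64), with an unadjusted p of 0.0569 and an adjusted p of 0.469 (limma-trend). Without vector 1 it was 0.18.

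Tgfbr2 (Gene ID 101841725), the type II receptor that binds the ligand, measured 28.19, 43.4 and 42.11 FPKM across vector 1 to 3 and 42.18, 38.12 and 42.12 FPKM across STYK1 1 to 3. Here the groups overlapped: 5 libraries lay close together and vector 1 alone was low. The group means were 37.9 ± 8.43 and 40.8 ± 2.33 FPKM (SD, n = 3 each). This gave a log2 fold change of 0.13 ± 0.16 (SE; 95% interval -0.24 to 0.49; adjusted p = 0.698, limma-trend), and it was -0.07 without vector 1, so its sign rested on that library.

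Set against each other within a library, where the scaling of the library cancels, the receptors gave a Tgfbr1 to Tgfbr2 FPKM ratio of 0.254, 0.218 and 0.248 across vector 1 to 3 and of 0.271, 0.312 and 0.256 across STYK1 1 to 3. Vector 1 was not apart in this ratio, although both receptors were at their lowest there. The STYK1 values all lay above the vector values, but STYK1 3 exceeded vector 1 by less than the spread within either group. The mean ratio was 0.240 ± 0.0196 in vector and 0.279 ± 0.0291 in STYK1 libraries (SD, n = 3 each), and no test was made on it.

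Of the receptor-activated SMADs, Smad2 (Gene ID 101831324) measured 7.34, 8.65 and 9.18 FPKM across vector 1 to 3 and 9.26, 10.01 and 9.02 FPKM across STYK1 1 to 3. Vector 1 was lowest and STYK1 2 highest, with vector 3 inside the STYK1 range. Between the groups the log2 fold change was 0.16 ± 0.12 (SE; 95% interval -0.12 to 0.43; adjusted p = 0.542, limma-trend), and 0.07 without vector 1. Smad3 (Gene ID 101831942), which unlike full-length SMAD2 binds DNA directly, measured 31.3, 29.12 and 28.86 FPKM across vector 1 to 3 and 30.27, 36.08 and 28.31 FPKM across STYK1 1 to 3. It had no low value in vector 1; the library that stood out was STYK1 2, and the lowest value of all was STYK1 3. Its log2 fold change was 0.08 ± 0.11 (SE; 95% interval -0.17 to 0.32; adjusted p = 0.741, limma-trend), and -0.02 without STYK1 2. The Smad2 to Smad3 FPKM ratio was 0.235, 0.297 and 0.318 across vector 1 to 3 and 0.306, 0.277 and 0.319 across STYK1 1 to 3, with overlapping groups, so that Smad3 was the more abundant transcript per length in every library.

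Smad4 (Gene ID 101843946), the common partner of the activated SMADs, measured 16.07, 20.24 and 21.38 FPKM across vector 1 to 3 and 22.78, 21.21 and 22.47 FPKM across STYK1 1 to 3. STYK1 2 lay just under vector 3, which is the only overlap between the groups. The means were 19.2 ± 2.80 and 22.2 ± 0.832 FPKM (SD, n = 3 each), and the log2 fold change was 0.20 ± 0.12 (SE; 95% interval -0.07 to 0.48; adjusted p = 0.478, limma-trend). It was 0.09 without vector 1.

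Smad7 (Gene ID 101829985), the inhibitory SMAD that blocks the type I receptor and recruits SMURFs to it, was the only one of the 10 with a lower mean in STYK1 libraries. It measured 3.26, 1.92 and 2.14 FPKM across vector 1 to 3 and 2.09, 2.75 and 1.48 FPKM across STYK1 1 to 3. The groups overlapped widely: vector 1 and STYK1 2 were the high libraries and STYK1 3 the low one. For the difference, limma-trend gave a log2 fold change of -0.15 ± 0.21 (SE; 95% interval -0.63 to 0.33; adjusted p = 0.738, limma-trend), and it was 0.02 without vector 1 and 0.0047 without STYK1 3. Vector 1, lowest for most of these genes, thus held the highest level of Smad7, and the Smad7 to Smad4 FPKM ratio was 0.203 there, against 0.0949 and 0.1001 in vector 2 and 3 and 0.0917, 0.130 and 0.0659 across STYK1 1 to 3.

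The corepressors differed from each other in how much they varied. Skil (Gene ID 101825210), which encodes SnoN, measured 9.48, 10.95 and 10.67 FPKM across vector 1 to 3 and 13.74, 13.55 and 11.56 FPKM across STYK1 1 to 3. All STYK1 libraries were above all vector libraries, STYK1 3 by a small margin. The means were 10.4 ± 0.781 and 12.95 ± 1.21 FPKM (SD, n = 3 each), a ratio of 1.25. The log2 fold change was 0.29 ± 0.11 (SE; 95% interval 0.03 to 0.56), and its unadjusted p of 0.0320 was the only one of the 10 under 0.05, against 4.95% of tested genes that were higher in STYK1 libraries at that level. It did not pass after adjustment (adjusted p = 0.469, limma-trend). The unadjusted p of Skil from limma-trend was 0.0550 without vector 3, 0.12 without STYK1 1, 0.0925 without STYK1 2, 0.0515 with quantile normalization and 0.0691 with the replicate number as a block. The number of the 10 under 0.05 was 0 in each of these settings except without vector 3, where it was 3, against 7.86% of tested genes. It was also 3 with equal FPKM sums, against 11%, and 4 with array quality weights, against 10.5%. Of the 10 genes, Skil and Smad3 had log2 fold changes that stayed within 1.5 times of their value when vector 1 was left out, at 0.24 for Skil and 0.11 for Smad3.

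Ski (Gene ID 101838153), by contrast, measured 20.47, 21.11 and 20.82 FPKM across vector 1 to 3 and 21.48, 21.27 and 20.72 FPKM across STYK1 1 to 3. The highest library was only 1.05 times the lowest, vector 1 included. On FPKM + 1, a smaller ratio of highest to lowest was found for 0.0872% of the tested genes, whose median ratio was 1.38. Its log2 fold change was 0.02 ± 0.08 (SE; 95% interval -0.17 to 0.22; adjusted p = 0.909, limma-trend). This flatness holds for FPKM as deposited: with the libraries scaled to equal FPKM sums, which moved the median of all tested genes from 0.01 to 0.12, the value for Ski was 0.13, and with median centring it was -0.0050.

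The Skil to Ski FPKM ratio was 0.463, 0.519 and 0.512 across vector 1 to 3 and 0.640, 0.637 and 0.558 across STYK1 1 to 3. The groups did not overlap, and the gap between vector 2 and STYK1 3 was smaller than the spread of the STYK1 values. The mean ratio was 0.498 ± 0.0305 in vector and 0.612 ± 0.0465 in STYK1 libraries (SD, n = 3 each). Leaving out each library in turn, the log2 change of this ratio ranged from 0.25 to 0.36, around 0.30 with all 6. Ski barely varied, so the ratio mostly repeats Skil, whose own log2 fold change ranged from 0.24 to 0.37, and is not a second result. The ratio is a description of a pair picked from the 10 genes, with no test.

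**Figure D3:**
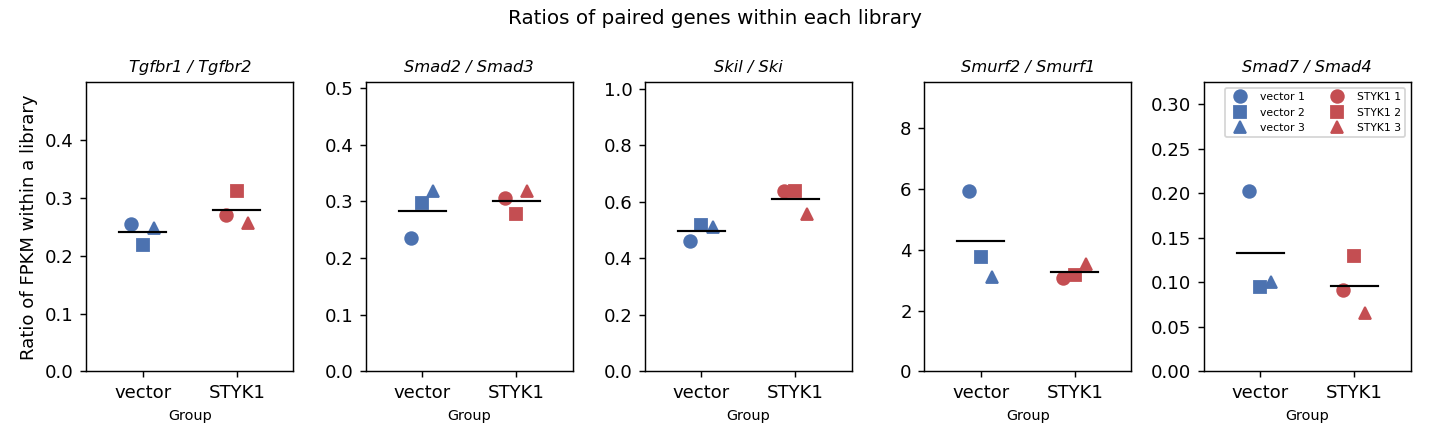
FPKM ratio of paired genes within each library (linear axes from 0), with vector libraries in blue, STYK1 libraries in red, symbols marking the replicate number and black bars the group means (n = 3 each). The groups are separated for Tgfbr1 to Tgfbr2 and for Skil to Ski, and vector 1 stands far from the others for Smurf2 to Smurf1 (5.94) and Smad7 to Smad4 (0.203).

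Of the ubiquitin ligases, Smurf1 (Gene ID 101838251) had the largest ratio of highest to lowest library among the 10 genes. It measured 5.52, 10.15 and 12.86 FPKM across vector 1 to 3 and 14.67, 13.44 and 11.86 FPKM across STYK1 1 to 3. Vector 1 was far below all other libraries, and vector 3 lay inside the STYK1 range. The means were 9.51 ± 3.71 and 13.3 ± 1.41 FPKM (SD, n = 3 each), a ratio of 1.40. The log2 fold change of 0.51 ± 0.25 (SE; 95% interval -0.07 to 1.09; adjusted p = 0.469, limma-trend) was the largest of the 10 with all 6 libraries. Without vector 1 it was 0.20, below the 0.24 of Skil. On FPKM + 1 its ratio of highest to lowest library, 2.40, exceeded that of 97.1% of tested genes, and without vector 1 the ratio was 1.41, above 83.7% of them.

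Smurf2 (Gene ID 101831395) measured 32.79, 38.2 and 40.09 FPKM across vector 1 to 3 and 45.11, 42.65 and 41.77 FPKM across STYK1 1 to 3. The groups did not overlap, with vector 3 and STYK1 3 the nearest pair. The means were 37.0 ± 3.79 and 43.2 ± 1.73 FPKM (SD, n = 3 each), a ratio of 1.17, and the log2 fold change was 0.22 ± 0.10 (SE; 95% interval -0.0060 to 0.45; unadjusted p = 0.0551, adjusted p = 0.469, limma-trend). It was 0.14 without vector 1. Smurf2 was the more abundant ligase transcript per length in every library, by an FPKM ratio over Smurf1 of 5.94, 3.76 and 3.12 across vector 1 to 3 and of 3.07, 3.17 and 3.52 across STYK1 1 to 3. Vector 1 was alone in its high ratio, and the other vector libraries lay around the STYK1 values.

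Across libraries, 8 of the 10 genes were at their lowest in vector 1, against 36.2% of tested genes, and 1 of the 10, Smad7, was at its highest there, against 37.1%. Relative to the vector mean, the median of the 10 genes on log2(FPKM + 1) was -0.17, 0.06 and 0.12 across vector 1 to 3 and 0.21, 0.22 and 0.16 across STYK1 1 to 3. The distance of vector 1 from the other vector libraries was thus larger than that between vector 3 and any STYK1 library. The median of all tested genes lay between -0.0022 and 0.04 in the same libraries. Without vector 1, the log2 fold change was smaller by over 1.5 times for 6 of the 10 genes, had the other sign for 2 (Tgfbr2 and Smad7) and stayed within 1.5 times for 2 (Skil and Smad3). The same shares over all tested genes were not computed.

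**Figure D4:**
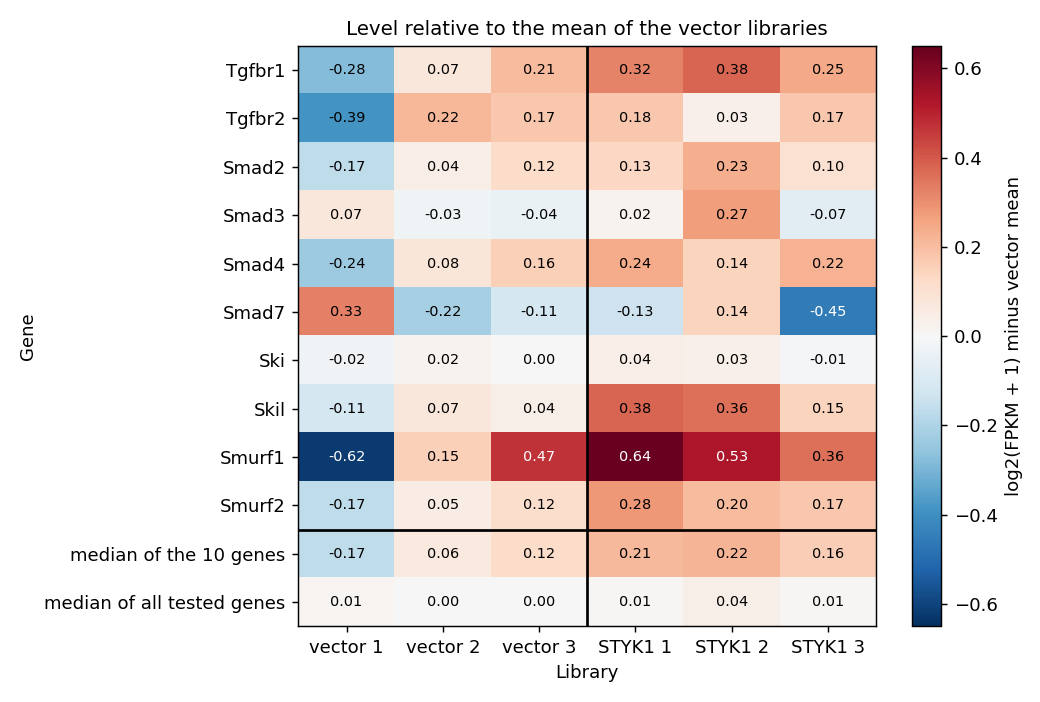
Level of each gene in each library as log2(FPKM + 1) minus the mean of the vector libraries (colour and printed value), with the median of the 10 genes and of all tested genes in the bottom rows. The column of vector 1 is the lowest for most genes and the highest for Smad7. Smad7, Ski, Smad3 and Tgfbr2 do not share the higher values of the other genes in all 3 STYK1 libraries. Tgfbr2, at 0.18, 0.03 and 0.17 across STYK1 1 to 3, is not above vector 2 (0.22) in any of them.

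Taking the gene of smallest p, Skil, the 3 genes outside the pathway core with the most similar course over the 6 libraries were Vezt, Cfap97 and Ewsr1. Their log2(FPKM + 1) values had a Pearson correlation with Skil of 0.998, 0.997 and 0.994, the highest of 10010 named genes compared. With 6 libraries and that many candidates, values near 1 are found by selection, and they are given as a description.

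The rest of the pathway was read from 7 lists of other genes, 128 of them in the files and 101 past the filter. None of the 101 passed the test (limma-trend, adjusted p under 0.05). Of the 101, 7 had an unadjusted p under 0.05 with a higher mean in STYK1 libraries and 0 with a lower mean, 6.93% higher against 4.95% of all tested genes and 0% lower against 4.88%. In 21 of the 101 the STYK1 libraries all lay above the vector libraries and in 9 all below, 20.8% and 8.91% against 13.6% and 9.44% of all tested genes. With equal FPKM sums the separated genes numbered 33 above and 1 below, against 24.5% and 3.95% of all tested genes. The 7 higher at an unadjusted p under 0.05 became 19 with equal FPKM sums, against 11% of all tested genes, 16 without vector 3, against 7.86%, 1 without STYK1 1, against 1.44%, and 2 without STYK1 2, against 1.83%. Leaving out vector 1 shrank the log2 fold change by more than 1.5 times in 16 of the 28 genes of these lists chosen for naming. Those 28 were picked by small p with vector 1 included, and no such share was computed over all tested genes. The count therefore cannot show a dependence on vector 1 beyond that of other genes. The median log2 fold change of the 101 genes was 0.06.

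Of the ligand genes, 9 of 17 in the files passed the filter, with a median log2 fold change of -0.14 that was 0.05 without vector 1. Those with the smallest p were Bmp4, a bone morphogenetic protein, at 8.34 ± 0.471 FPKM for vector and 7.04 ± 0.213 FPKM for STYK1 libraries, and Inhba, which encodes the activin A subunit, at 3.78 ± 1.04 and 5.01 ± 0.226 FPKM (SD, n = 3 each). The log2 fold change of Bmp4 was -0.22, and -0.18 without vector 1. That of Inhba was 0.35, and 0.16 without vector 1. All STYK1 libraries lay above all vector libraries in 1 of the 9 ligand genes, Inhba, 11.1% against 13.6% of all tested genes. They all lay below in 1, Bmp4, 11.1% against 9.44%. Tgfb1, named for its level after the values were seen, was the abundant TGF-beta isoform at 92.43 to 116.21 FPKM, against 3.71 to 5.5 FPKM for Tgfb3 and 0.07 to 0.55 FPKM for Tgfb2. Of the genes for latency and extracellular control, 14 of 21 passed the filter, with a median of 0.03 and of -0.04 without vector 1. In 4 of the 14, Emilin1 among them, all STYK1 libraries lay below all vector libraries, 28.6% against 9.44% of all tested genes. In 1 they all lay above, 7.14% against 13.6%. Without vector 1, 5 lay below, 35.7% against 11.9%. With equal FPKM sums 0 lay below, against 3.95%, and 4 above, 28.6% against 24.5%. Emilin1, an extracellular glycoprotein that limits TGF-beta processing, measured 75.3 ± 6.55 and 65.3 ± 3.09 FPKM in vector and STYK1 libraries. Ltbp2, of the latent TGF-beta binding protein family, measured 34.5 ± 8.94 and 43.9 ± 2.41 FPKM, and the integrin genes Itgb6 and Itgav, whose products activate latent TGF-beta, measured 8.97 ± 0.548 against 11.2 ± 1.89 FPKM and 27.8 ± 7.94 against 35.65 ± 1.34 FPKM. Without vector 1 the log2 fold change went from 0.37 to 0.15 for Ltbp2, from 0.39 to 0.14 for Itgav and from 0.28 to 0.23 for Itgb6. That of Emilin1 went from -0.20 to -0.14.

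Of the other receptors of the family, 8 of 13 in the files passed the filter, with a median of 0.16 and of 0.13 without vector 1. In Bmpr2, Bmpr1a, Acvr1b and Acvr1, 4 of the 8, all STYK1 libraries lay above all vector libraries, 50% against 13.6% of all tested genes. In 0 of the 8 did they all lie below, against 9.44%. Bmpr2, the type II receptor for bone morphogenetic proteins, measured 7.28, 12.01 and 11.75 FPKM across vector 1 to 3 and 14.5, 14.53 and 13.14 FPKM across STYK1 1 to 3, with a log2 fold change of 0.44 ± 0.18 (SE; unadjusted p = 0.0388, adjusted p = 0.469, limma-trend) and of 0.22 without vector 1. The 4 other SMAD genes, Smad1, Smad5, Smad6 and Smad9, had a median of 0.12. None had separated groups, against 13.6% of all tested genes separated above and 9.44% below.

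Of 22 tested SMAD cofactors, corepressors and anchors, 5 were higher and 0 lower at an unadjusted p under 0.05 (limma-trend), against 4.95% and 4.88% of all tested genes. The 5 became 1 without STYK1 1, against 1.44% of all tested genes, 1 without STYK1 2, against 1.83%, and 9 with equal FPKM sums, against 11%. The median of the list was 0.13, and 0.14 without vector 1. In 9 of the 22 all STYK1 libraries lay above all vector libraries, 40.9% against 13.6% of all tested genes. In 1 they all lay below, 4.55% against 9.44%. Lemd3, an inner nuclear membrane protein that binds SMADs and dampens the pathway, measured 8.2, 11.14 and 11.22 FPKM across vector 1 to 3 and 14.19, 15.15 and 13.47 FPKM across STYK1 1 to 3. Its log2 fold change of 0.46 ± 0.14 (SE; unadjusted p = 0.00921, adjusted p = 0.469, limma-trend) was 0.32 without vector 1. Runx1, a SMAD-binding transcription factor, Zfyve16, an endosomal SMAD anchor, and Trim33, a ubiquitin ligase that acts on SMAD4, had log2 fold changes of 0.38, 0.43 and 0.25, with every STYK1 library above every vector library. Without vector 1 these were 0.27, 0.24 and 0.19.

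Of the other ubiquitin ligases, deubiquitinases and phosphatases, 23 passed the filter, with a median of 0.09. In 5 of the 23 all STYK1 libraries lay above all vector libraries, 21.7% against 13.6% of all tested genes. In 3 they all lay below, 13.0% against 9.44%. At an unadjusted p under 0.05, 1 was higher, 4.35% against 4.95% of all tested genes, and 0 were lower. That gene was Usp15, a deubiquitinase of receptors and SMADs, at 28.5 ± 4.07 FPKM for vector and 35.2 ± 3.59 FPKM for STYK1 libraries. Usp9x and Cyld, also deubiquitinases, lay higher in all STYK1 libraries, with log2 fold changes of 0.38 and 0.28, and the phosphatase scaffold gene Ppp2r1a lay lower in all of them, at -0.22. Without vector 1 the log2 fold change was 0.16 for Usp9x, 0.24 for Cyld and -0.12 for Ppp2r1a, and that of Usp15 went from 0.30 to 0.18.

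Of 27 target genes of the pathway in the files, 21 passed the filter, with 0 higher and 0 lower at an unadjusted p under 0.05, a median of 0.01 and 12 of 21 above 0. Without vector 1 the median was -0.07, with 8 of 22 above 0, and 0 were higher and 2 lower at an unadjusted p under 0.05. Over all tested genes without vector 1, 55.6% lay above 0, and 4.91% were higher and 4.57% lower at that level. The gene added to the 21 here was Col1a1, which passed the filter only through vector 2 and 3, at 1.02 and 0.98 FPKM. It lay at 0.65 to 0.79 FPKM across STYK1 1 to 3, so the filter itself placed it below 0. Tagln passed only through its STYK1 mean of 1.07 FPKM (vector mean 0.79) and was counted above 0. Zeb2, a repressor of epithelial genes, measured 14.48, 33.49 and 33.41 FPKM across vector 1 to 3 and 35.82, 35.39 and 37.57 FPKM across STYK1 1 to 3. It was the only target of the 21 with every STYK1 library above every vector library, 4.76% against 13.6% of all tested genes. Vector 1 held less than any other library, and the log2 fold change of 0.50 was 0.11 without it. Twist1, Timp1 and Cdkn1a had log2 fold changes of -0.21, -0.18 and -0.24 with overlapping groups, and of -0.13, -0.16 and -0.06 without vector 1.

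**Figure D5:**
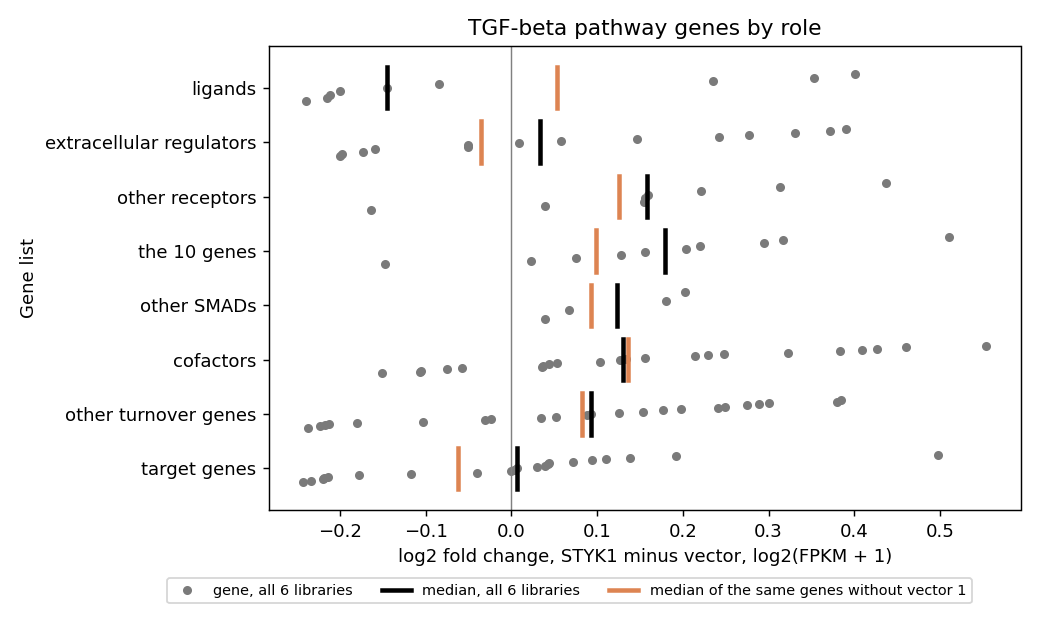
Log2 fold change (STYK1 minus vector on the log2(FPKM + 1) scale) of each tested gene by list (grey points), with the list median in black and the median of the same genes without vector 1 in orange. No point is past the test, and leaving out vector 1 moves the median of the 10 genes from 0.18 to 0.10 and puts the medians of the ligands, the extracellular regulators and the target genes on the other side of 0.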

How the data were processed

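Per the labels' protocols, 1 ug of total RNA went into each Illumina TruSeq library. Per the file headers, the authors deposited FPKM values. Bowtie 0.12.2 and the builds mm8 and mm9 are named, with no role, in the submitters' processing notes; the tool behind FPKM, the annotation, strand use and the treatment of shared reads were not given in the sources used here. The FPKM of close paralogs or overlapping genes is uncertain. Of 16078 IDs, 15049 matched the RefSeq gene table of BCM_Maur_2.0, used for names alone.

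The 11464 genes whose mean reached 1 FPKM in a group were tested with limma-trend (limma 3.58.1, R 4.3.3, robust) on log2(FPKM + 1), two-sided, with Benjamini-Hochberg adjustment over all of them. Fold changes on this scale understate changes of low genes. The scripts were tested on simulated data with no outlying library and with larger changes than those of the genes described. That does not show whether changes of the size seen here would be found. Relative depth was the inverse of the most frequent FPKM ratio of each library to STYK1 1 among genes between 0.8 and 6 FPKM. No counts were available, so no counting interval is given. At most 3.03% of genes had the same value above 0 in any 2 libraries, so none was counted as a repeat.

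The 10 genes, the lists and the rule for named genes (the 10, Styk1, the 4 of smallest p per list, and the 3 closest in course to the gene of smallest p) were chosen with earlier results of these data known. Groups come from the treatment labels. Alternatives were the pseudocount, the filter, the scaling, library weights, a replicate block and leaving out each library.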

Additional observations from a re-analysis of the deposited data

How the results depend on the processing

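The call on the 10 genes, 0 passing limma-trend at an adjusted p under 0.05, was the same under every alternative run, as were the 0 calls in each of the 7 other lists. Over all genes, calls at an adjusted p under 0.05 were 0 with all libraries, 24 with array quality weights (which gave vector 1 a weight of 0.129) and 0 to 2 when a library was left out (2 without vector 3, without STYK1 1 and without STYK1 3). Genes at an unadjusted p under 0.05 numbered 1128, 2365 with weights and 354 to 1712 when a library was left out. The split of these into higher and lower was 568 and 560, but 1263 and 218 with equal FPKM sums and 402 and 762 with median centring. The log2 fold change of Ski was -0.0050 with median centring. That of Smad7 ranged from -0.29 to 0.017 and that of Smad3 from -0.022 to 0.15 when a library was left out, and that of Tgfbr2 from -0.067 to 0.24 and was -0.029 with weights. Without vector 1 and with equal FPKM sums, an alternative added after seeing the data, Smad7 was at 0.058 and Tgfbr2 at -0.0085. The number of the 10 genes with separated groups, 3 as reported, was 6 with equal FPKM sums (24.5% of all tested genes), 6 with those and without vector 1 (28.5%), and 3 to 6 when a library was left out (6 without vector 3, against 19.4%, and without STYK1 3, against 20.1%). The median of the ligands was -0.039 with no filter, -0.017 with weights, -0.14 to 0.053 when a library was left out, and 0.11 without vector 1 and with equal sums. The median of the other receptors was 0.050 with no filter. With equal sums, which shift all genes, the medians were 0.26 for other receptors, 0.24 for cofactors, 0.20 for the other turnover genes and 0.11 for targets; without vector 1 as well, 0.19 for cofactors and 0.14 for the other turnover genes. When a library was left out, the median ranged from 0.068 to 0.13 for the other turnover genes and from -0.10 to 0.092 for targets. The causes were not tested. The titles share replicate numbers, but same-numbered libraries did not deviate together (correlations of -0.27, -0.16 and 0.11). With the replicate block 0 genes passed, and Skil had the same log2 fold change of 0.29 with an adjusted p of 0.581. Absolute depth is unknown, which limits what can be said of Smad7, the lowest of the 10.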
